A study of Mus musculus with 15 samples.

Results

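The Myc and Max network of basic helix-loop-helix leucine zipper proteins was followed here in mouse embryonic stem (ES) cells through 6 of its genes: Myc, Mycn, Max, Mxi1, Mnt and Mga. The members were found by name in the platform annotation, among probe sets with exactly 1 gene symbol; the choice of this gene family was made with earlier results of these data known. All 6 were measured, each by 1 probe set, out of 19937 genes on the array.

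Total RNA of 15 samples, 3 per group, was hybridised to Affymetrix whole-transcript arrays. In the 2iLIF group the cells stayed in long-term culture with 3 µM CHIR99021, an inhibitor of the kinase GSK3, 1 µM PD0325901, an inhibitor of MEK, and the cytokine LIF. The other groups had spent 24 h without LIF: 2i cells kept both inhibitors, CHIR cells kept CHIR99021 at 3 µM, PD03 cells kept PD0325901 at 1 µM, and DMSO cells kept neither. All groups came from a single 2i-adapted knock-in ES line in which Ctnnb1, encoding beta-catenin, carries a biotin and 3xFLAG tag and which also expresses BirA, an enzyme that attaches biotin, so every comparison lies within that line.

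Myc and Mycn proteins bind DNA only as heterodimers with Max, mainly at E-boxes with the core CACGTG, and raise the transcription of genes for ribosome production, metabolism and cell division. Mxi1, Mnt and the Mxd proteins pair with the same Max and recruit Sin3 corepressors to the same sites, and Mga joins Max to PRC1.6, a Polycomb complex that silences germ line genes in ES cells. Signals that these media alter are known to reach Myc: Wnt/beta-catenin and LIF/STAT3 can raise its transcription, ERK promotes its transcription and the stability of its protein, and GSK3 marks the protein for destruction through Fbxw7. Arrays report mRNA alone, so none of the protein-level steps was measured.

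The values are log2 RMA signals, so a difference of 1 is a 2-fold change, and the array medians lay between 6.98 and 7.06. The ES cell markers Pou5f1, Sox2, Nanog, Zfp42, Utf1 and Dppa5a averaged 11.80 to 12.05 on the individual arrays. Against DMSO, 4 of these 6 were higher and 1 lower in PD03 and in 2iLIF, at a limma adjusted p under 0.05. In 2i 3 were higher and 1 lower, and in CHIR 2 were higher and 1 lower. The shares of all genes passing were 16.8% in PD03, 34.7% in 2iLIF, 25.5% in 2i and 20.8% in CHIR. Nanog was 11.67 to 11.86 on the DMSO arrays and 12.68 to 12.76 on the 2iLIF arrays. Averages were 6.30 to 6.50 for 7 fibroblast and feeder markers, 6.45 to 6.60 for 8 extra-embryonic endoderm markers, 6.56 to 6.84 for 7 trophoblast markers, and 5.18 to 5.32 for 3 markers of 2-cell-stage-like cells. Krt8, the highest trophoblast marker, had group means of 10.41 in 2iLIF, 9.85 in 2i, 9.10 in CHIR, 10.07 in PD03 and 9.35 in DMSO, higher in the groups with PD0325901, while Cdx2, another trophoblast marker, had group means of 5.89 to 6.09 and was higher in CHIR than in PD03 (0.19 ± 0.07). Gata4, the highest endoderm marker, was also higher in the groups with PD0325901, with means of 7.80 in 2iLIF, 7.68 in 2i, 7.45 in CHIR, 7.76 in PD03 and 7.54 in DMSO, and the fibroblast marker Dcn, under 6 in every group, was lower than DMSO in all 4 other groups. The part of these markers in the members' results was not tested. Among 8 pathway read-outs, Axin2 was 1.45 ± 0.08 (SE) higher in CHIR than in DMSO, Dusp6 fell by 1.72 ± 0.06 in PD03 against DMSO, and Socs3 was 1.64 ± 0.08 higher in 2iLIF than in 2i. The read-outs did not each follow 1 factor: Dusp6 also fell by 0.65 ± 0.06 in CHIR against DMSO, and Lef1, a Wnt target, fell by 0.50 ± 0.05 in CHIR and by 0.70 ± 0.05 in PD03 against DMSO. The members' signals were all above 8 on each array. In such bulk RNA, fewer cells that express a gene and less RNA per cell cannot be told apart.

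Myc, the founding transcription factor of the family, was low wherever the MEK inhibitor was present. Its signal was 8.95, 8.94 and 8.995 on the 2iLIF arrays, 8.53, 8.66 and 8.94 in 2i, 9.56, 9.12 and 9.42 in CHIR, 8.90, 8.71 and 8.72 in PD03, and 9.49, 9.84 and 9.99 in DMSO. The 9 arrays with PD0325901 all lay below the 6 arrays without it. In PD03 against DMSO, Myc averaged 8.78 ± 0.11 and 9.78 ± 0.26 (SD, n = 3 each), a difference of -0.998 ± 0.13 (SE; limma adjusted p = 3.47e-05), which is 2.00-fold lower. Only 0.391% of all genes differed by as much in that comparison. With CHIR99021 present, Myc averaged 8.71 ± 0.21 in 2i and 9.37 ± 0.23 in CHIR (SD, n = 3 each), a difference of -0.66 ± 0.13 (adjusted p = 0.00315). Neither comparison had overlapping arrays, and both calls held in each of their 12 alternative analyses.

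CHIR99021 alone was not accompanied by more Myc mRNA than in DMSO. In CHIR against DMSO Myc was lower, at -0.41 ± 0.13 (limma adjusted p = 0.0319), although the arrays of these groups overlapped, the highest CHIR array (9.56) lying above the lowest DMSO array (9.49). That call was lost without CHIR replicate 2 or 3, without DMSO replicate 2 or 3, and in a fit of these 2 groups alone, with adjusted p up to 0.171. With PD0325901 present, 2i minus PD03 was -0.07 ± 0.13 (95% interval -0.34 to 0.20; adjusted p = 0.809). The test of the interaction, whether the effect of either inhibitor differed with the other present, gave 0.34 ± 0.18 (95% interval -0.04 to 0.72; adjusted p = 0.483). Both inhibitors together gave -1.07 ± 0.13 in 2i against DMSO (2.09-fold lower, adjusted p = 9.5e-06).

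Between 2iLIF cells in long-term culture and 2i cells after 24 h without LIF, no difference in Myc passed. In 2iLIF against 2i the estimate was 0.25 ± 0.13 (95% interval -0.02 to 0.52; adjusted p = 0.266), and one 2i array (8.94) reached the lowest 2iLIF array. Ordered from low to high, the group means ran 2i, PD03, 2iLIF, CHIR and DMSO. The lowest neighbours, 2i and PD03, did not differ beyond their spread, nor did 2iLIF and PD03 by the test (0.18 ± 0.13, adjusted p = 0.335). The step of 2iLIF below CHIR passed at -0.41 ± 0.13 (adjusted p = 0.029), but it was lost without any 1 of the 2iLIF replicates and without CHIR replicate 1 or 3 (adjusted p up to 0.139). Myc was the noisiest member, with a pooled SD within groups of 0.187, against 0.031 to 0.077 for the others.

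**Figure D1:**
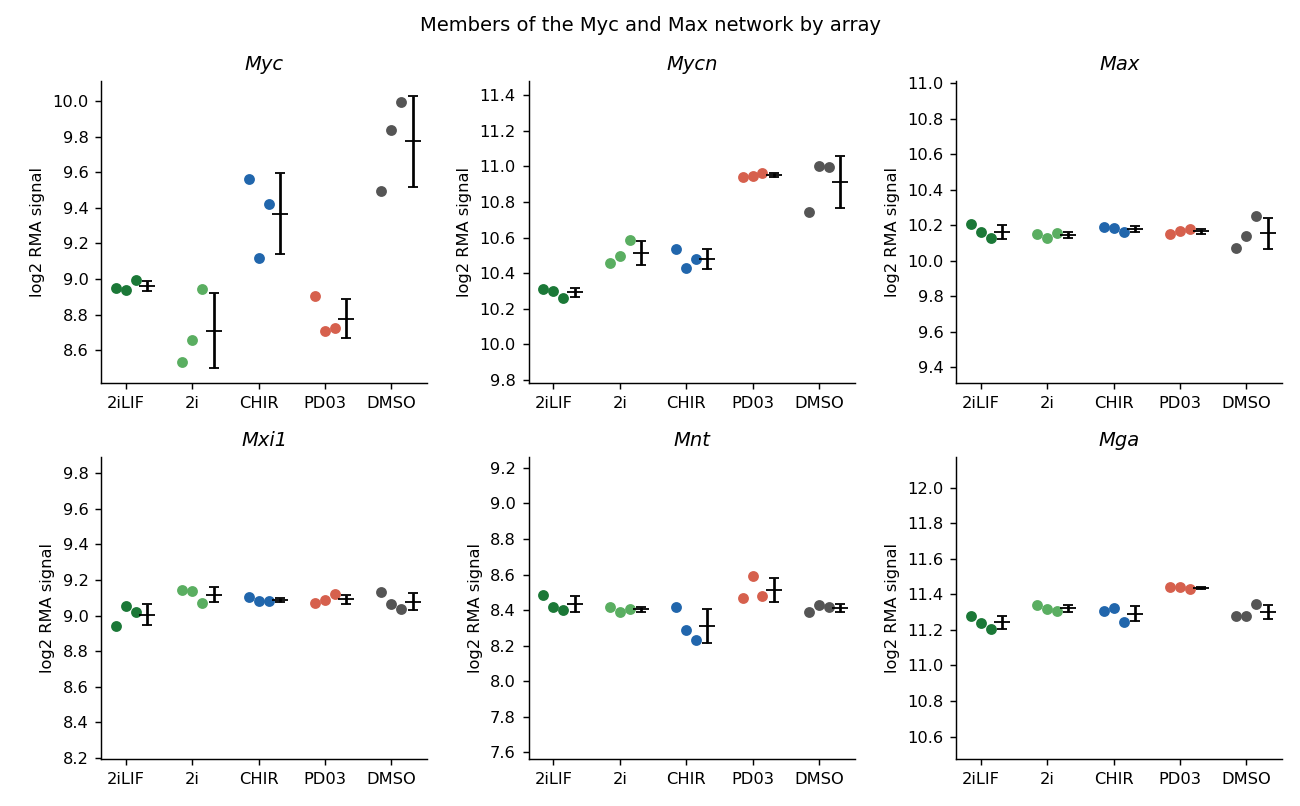
Log2 RMA signal of each member on the 15 arrays, with 1 point per array by group and a bar for the mean ± SD (n = 3); every panel spans the same log2 height. Myc is lower on the 9 arrays with PD0325901 than on the other 6, Mycn is lower on the 9 arrays with CHIR99021, and the group means of Max differ by 0.033 at most.

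Mycn, the Myc relative that ES cells and the epiblast use beside Myc, was low wherever the GSK3 inhibitor was present. Its signal was 10.31, 10.30 and 10.26 in 2iLIF, 10.46, 10.49 and 10.58 in 2i, 10.54, 10.43 and 10.48 in CHIR, 10.94, 10.95 and 10.96 in PD03, and 10.74, 11.00 and 11.00 in DMSO. All 9 arrays with CHIR99021 lay below the 6 arrays without it. In CHIR against DMSO, Mycn averaged 10.48 ± 0.06 and 10.91 ± 0.15 (SD, n = 3 each), a difference of -0.43 ± 0.06 (SE; limma adjusted p = 5.87e-05), or 1.35-fold lower. With PD0325901 present the difference was -0.44 ± 0.06 in 2i against PD03 (adjusted p = 6.13e-05), and the interaction was -0.01 ± 0.08 (95% interval -0.18 to 0.17; adjusted p = 0.99). These calls held in all 12 alternatives of each comparison.

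PD0325901 did not move Mycn detectably, with 0.04 ± 0.06 in PD03 against DMSO (95% interval -0.09 to 0.16; adjusted p = 0.762) and 0.03 ± 0.06 in 2i against CHIR (95% interval -0.09 to 0.16; adjusted p = 0.808). Mycn was lower again where LIF was kept, at -0.22 ± 0.06 in 2iLIF against 2i (adjusted p = 0.0205), with no overlap of the arrays. That call was lost without 2iLIF replicate 2 or 3 and without 2i replicate 3 (adjusted p up to 0.0997). Its group means ran, from low to high, 2iLIF, CHIR, 2i, DMSO and PD03. Neither CHIR and 2i nor DMSO and PD03 differed beyond their spread. The step of 2iLIF below CHIR was -0.19 ± 0.06 (adjusted p = 0.028) and was lost without 2iLIF replicate 2 or 3 and without CHIR replicate 1 or 3 (adjusted p up to 0.109). Between the extremes, 2iLIF was 1.58-fold lower than PD03 (-0.66 ± 0.06, adjusted p = 2.97e-07).

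The bases before the start of Mycn are shown because its mRNA followed the GSK3 inhibitor, whose best-known route to genes is beta-catenin with TCF/LEF factors. They come from RefSeq (GRCm38.p6, chr12:12941837-12942086, minus strand), and capitals mark matches to an E2F motif (TTTGGCGC) and to a TCF/LEF core (CTTTGA), searched on both strands.
Mycn: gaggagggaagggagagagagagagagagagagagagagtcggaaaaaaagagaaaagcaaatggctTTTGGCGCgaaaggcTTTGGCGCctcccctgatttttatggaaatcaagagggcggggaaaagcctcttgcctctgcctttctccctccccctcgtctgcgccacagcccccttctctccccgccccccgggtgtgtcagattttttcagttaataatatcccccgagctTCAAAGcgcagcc
The E2F motif begins 183 and 168 bases before the start, and 0.417% of the 32851 promoter windows of 250 bases hold it. The TCF/LEF core lies on the opposite strand 13 bases before the start, where it reads TCAAAG, and 13.8% of windows hold one. Such matches describe letters and are no evidence of binding.

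**Figure D2:**
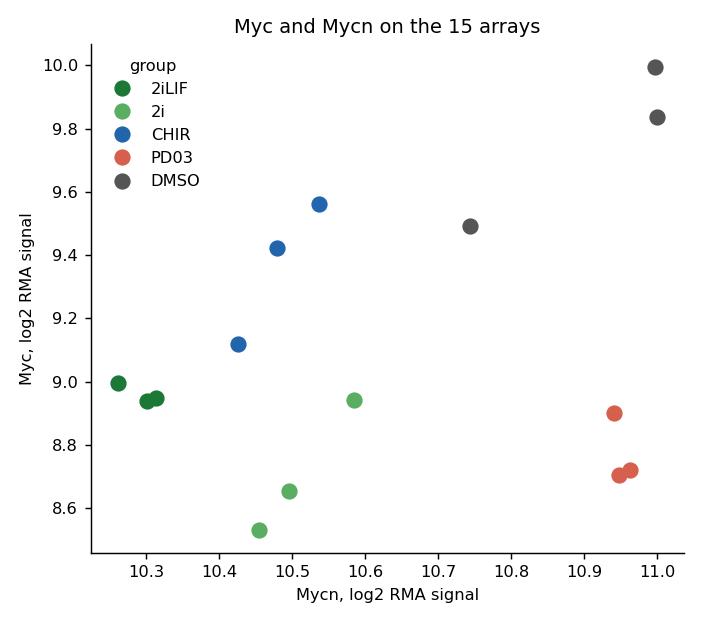
Log2 RMA signal of Mycn (horizontal) against Myc (vertical), with 1 point per array coloured by group. PD03 arrays lie at high Mycn and low Myc, CHIR arrays at low Mycn and higher Myc, DMSO arrays are high in both, and 2i and 2iLIF arrays are low in both.

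The inhibitors were set against each other directly in CHIR minus PD03, which uses no DMSO array but the same CHIR and PD03 arrays as above. There Myc was higher with CHIR99021 (0.59 ± 0.13, limma adjusted p = 0.00247) and Mycn lower (-0.47 ± 0.06, adjusted p = 1.91e-05), each without overlap of the arrays and in all 12 alternatives. In that comparison 4 of the 6 members were called, where 25.8% of all genes were.

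The count of members called in each comparison is given beside the share of all genes called there. In CHIR minus DMSO 2 of the 6 members were called, Myc and Mycn, and 20.8% of all 19937 genes were. In PD03 minus DMSO 2 members were called, Myc and Mga (16.8% of all genes), and in 2i minus DMSO 2, Myc and Mycn (25.5%). In 2i minus CHIR Myc alone was called (9.46%), in 2i minus PD03 Mycn and Mga (19.5%), and in 2iLIF minus 2i Mycn alone (12.2%). The calls were 2 in each of 2iLIF minus DMSO (Myc and Mycn, 34.7%), 2iLIF minus CHIR (Myc and Mycn, 23.1%) and 2iLIF minus PD03 (Mycn and Mga, 31.7%). The interaction called none of the 6, with limma adjusted p from 0.379 for Mga upward, and 2.04% of all genes. Of the 6, Mga was the one with an unadjusted interaction p under 0.05 (unadjusted p = 0.0423 in limma). Myc and Mycn had the widest ranges of group means among the 6: 2.22% of all genes had as wide a range of group means as Myc (1.07) and 6.24% as wide a range as Mycn (0.66).

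**Figure D3:**
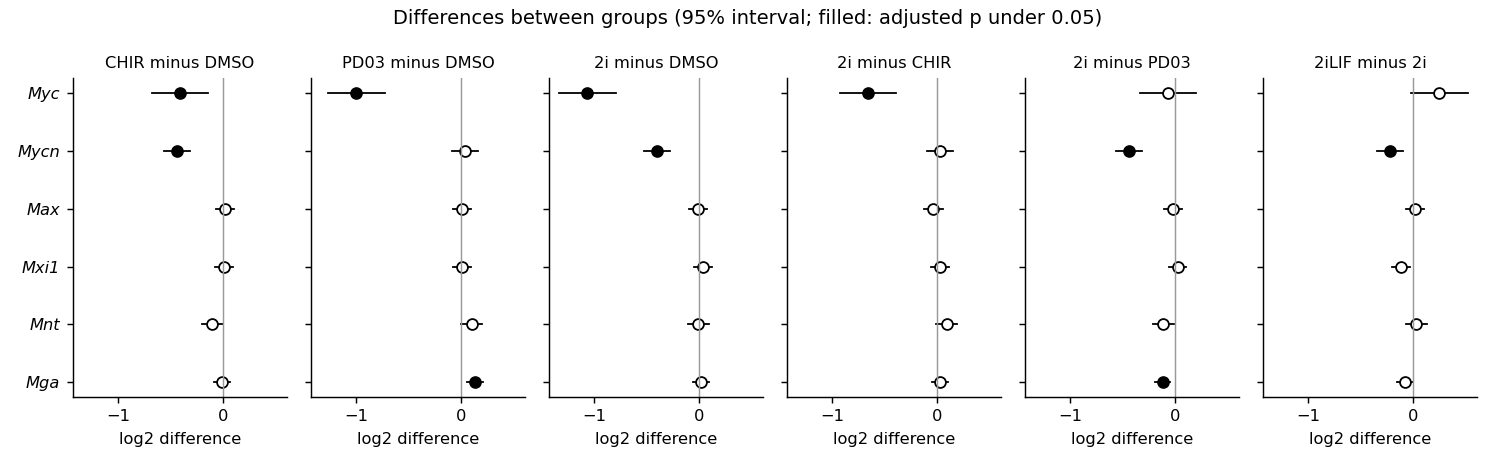
Log2 difference of each member in 6 comparisons, with the 95% interval of the fit over all 15 arrays; filled points have a limma adjusted p under 0.05. Points of Myc lie at -0.998 and -0.66 in the 2 comparisons whose groups differ in keeping PD0325901 alone, and those of Mycn at -0.43 and -0.44 in the 2 whose groups differ in keeping CHIR99021 alone.

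Max, the partner that these proteins share, had nearly the same level in every medium. Its signal was 10.20, 10.16 and 10.13 in 2iLIF, 10.15, 10.13 and 10.16 in 2i, 10.19, 10.19 and 10.16 in CHIR, 10.15, 10.17 and 10.18 in PD03, and 10.07, 10.14 and 10.25 in DMSO. The group means spanned 0.033, and 98.6% of all genes had a range at least as wide. In the 10 comparisons between pairs of groups the 95% intervals for Max lay between -0.12 and 0.11, and its smallest limma adjusted p was 0.691. The order of its group means, 2i, DMSO, 2iLIF, PD03 and CHIR, has therefore no step beyond the spread.

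Mxi1, a Max-binding repressor of the Mad family, had its lowest mean where LIF was kept, a difference that did not pass. Its signal was 8.94, 9.05 and 9.02 in 2iLIF, 9.15, 9.14 and 9.07 in 2i, 9.10, 9.08 and 9.08 in CHIR, 9.07, 9.09 and 9.12 in PD03, and 9.13, 9.06 and 9.04 in DMSO. The 2iLIF arrays did not overlap those of 2i, CHIR or PD03 but overlapped DMSO. No comparison passed for Mxi1: the largest difference was -0.11 ± 0.04 in 2iLIF against 2i (95% interval -0.20 to -0.03; limma adjusted p = 0.0792). Its group means ran 2iLIF, DMSO, CHIR, PD03 and 2i from low to high, and no neighbours differed beyond their spread.

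Mnt, a Max-binding repressor that is widely expressed and opposes Myc, lay highest in PD03 and lowest in CHIR. Its signal was 8.48, 8.42 and 8.40 in 2iLIF, 8.42, 8.39 and 8.40 in 2i, 8.42, 8.29 and 8.23 in CHIR, 8.47, 8.59 and 8.48 in PD03, and 8.39, 8.43 and 8.42 in DMSO. CHIR against PD03 averaged 8.31 ± 0.10 and 8.51 ± 0.07 (SD, n = 3 each), a difference of -0.20 ± 0.05 (limma adjusted p = 0.00434) that held in all 12 alternatives. Against DMSO neither inhibitor passed alone, at -0.10 ± 0.05 in CHIR (adjusted p = 0.168) and 0.10 ± 0.05 in PD03 (adjusted p = 0.168), with no overlap of the PD03 and DMSO arrays. Without CHIR replicate 1, the highest of its group, Mnt passed in CHIR against DMSO (adjusted p = 0.0264) and in 2iLIF against CHIR, where it was otherwise 0.12 ± 0.05 (adjusted p = 0.0806). The order of the means was CHIR, 2i, DMSO, 2iLIF and PD03, with no neighbours that differed by the test.

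Mnt is shown with its promoter stretch because it is the member whose RefSeq window holds the E-box of Myc-Max dimers before its start. The 60 bases lie at chr11:74830774-74830833 (GRCm38.p6, plus strand), with the E-box in capitals.
Mnt: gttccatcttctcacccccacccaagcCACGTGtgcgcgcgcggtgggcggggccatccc
The E-box begins 123 bases before the start, and 6.02% of all windows hold one. Windows were found for 5 of the 6 members, Mycn, Max, Mxi1, Mnt and Mga, and the E-box was found before the start in that of Mnt alone. A STAT motif (TTCNNNGAA) and an ETS motif (CCGGAAG) were in none of these members' windows, and 7.02% and 6.91% of all windows hold them.

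Mga, the large scaffold with a T-box and a helix-loop-helix domain, was highest with PD0325901 alone. Its signal was 11.28, 11.24 and 11.21 in 2iLIF, 11.34, 11.32 and 11.30 in 2i, 11.31, 11.32 and 11.25 in CHIR, 11.44, 11.44 and 11.43 in PD03, and 11.28, 11.28 and 11.35 in DMSO. The 3 PD03 arrays lay above the other 12. In PD03 against DMSO, Mga averaged 11.44 ± 0.01 and 11.30 ± 0.04 (SD, n = 3 each), a difference of 0.14 ± 0.03 (limma adjusted p = 0.0115), which is 1.10-fold. Mga was lower in CHIR than in PD03 (-0.15 ± 0.03, adjusted p = 0.00532) and lower in 2iLIF than in PD03 (-0.20 ± 0.03, adjusted p = 3.66e-04), both in all 12 alternatives. In 2i against PD03 it was -0.12 ± 0.03 (adjusted p = 0.0261), a call that was lost in 6 of 12 alternatives: with each array centred on its median, and on leaving out any PD03 replicate or replicate 2 or 3 of 2i (adjusted p up to 0.0837). From low to high its means ran 2iLIF, CHIR, DMSO, 2i and PD03, and the steps among the first 4 did not pass.

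Listed partners of Mga in PRC1.6, 14 in all, were called in both directions. In 2i against DMSO 1 was higher and 3 were lower (28.6% called, near the 25.5% of all genes; median -0.03, against 0.02 over all genes): Wdr5, which binds histone H3 tails, at 0.23 ± 0.04 (limma adjusted p = 1.68e-04), and the heterochromatin protein gene Cbx1, the E2F partner Tfdp2 and the ubiquitin ligase gene Ring1, with Cbx1 at -0.27 ± 0.05 and Tfdp2 at -0.24 ± 0.05. The call of Ring1 (-0.12 ± 0.04, adjusted p = 0.0443) held in 4 of 12 alternatives. In CHIR against PD03 4 were higher and 3 lower (7 of 14 called, against 25.8% of all genes; median -0.06, against -0.01), led by Yaf2, a Ring1-binding subunit, at 0.63 ± 0.07 (adjusted p = 8.21e-06). Yaf2 averaged 8.91 in CHIR and 8.29 in PD03.

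Germ line genes of the kind that PRC1.6 is known to silence were called lower more often than higher against DMSO, and this list was chosen with earlier results of these data known. Of 17 measured, 12 fell and 1 rose in 2iLIF against DMSO (76.5% called, against 34.7% of all genes; median -0.21, against 0.01 over all genes). The counts against DMSO were 7 lower and 1 higher in 2i (47.1%, against 25.5%; median -0.17, against 0.02), 6 lower and 1 higher in CHIR (41.2%, against 20.8%; median -0.07, against -0.01), and 5 lower and none higher in PD03 (29.4%, against 16.8%; median -0.16, against 0.00). In 2i, CHIR and PD03 most of the 17 were thus not called lower. Those 4 comparisons share the DMSO arrays. Meioc, a regulator of meiotic entry, averaged 6.36 in 2iLIF, 6.81 in 2i, 7.33 in CHIR, 7.77 in PD03 and 8.39 in DMSO, and its difference in 2i against DMSO was -1.59 ± 0.10 (3.00-fold lower, limma adjusted p = 4.18e-09). Mael, a piRNA pathway gene, averaged 6.28, 6.92, 7.37, 7.44 and 7.93 in the same order of groups. Zcwpw1, a histone reader of meiotic recombination, was at -0.89 ± 0.06 in 2i against DMSO. Dazl, an RNA-binding germ cell factor, was the gene that rose, at 0.34 ± 0.08 in 2i and 0.37 ± 0.08 in CHIR against DMSO (adjusted p = 0.00665 and 0.00475). For Slc25a31, Taf7l, Stra8, Tdrkh, Tdrd1 and Sycp1 every group mean was under 6, where a signal may be background. Of these, Taf7l, Tdrkh and Sycp1 were among the 12 that fell in 2iLIF against DMSO, and Tdrkh was also counted in 2i and CHIR. The count of 13 called in 2iLIF against DMSO ran from 9 to 13 over 12 alternatives. Taf7l was called in 5 of 11 of them and Stk31 in 6 of 12. Mga itself did not differ in 2iLIF, 2i or CHIR against DMSO by the test (limma adjusted p = 0.24, 0.749 and 0.924). In PD03 against DMSO it was higher, at 0.14 ± 0.03 (adjusted p = 0.0115). Whether Mga has a part in the differences of the germ line genes was not tested.

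The other relatives of the family were lower rather than higher where they moved. Of 10 measured (Mycl, Mxd1, Mxd3, Mxd4, Mlx, Mlxip, Mlxipl, Tcfl5, Usf1 and Usf2), 5 fell and none rose in CHIR against DMSO (5 of 10 called, against 20.8% of all genes; median -0.14, against -0.01 over all genes), and 2 fell in PD03 against DMSO (20.0%, against 16.8%; median -0.05, against 0.00). The 3 Mxd genes, which encode Max-binding repressors tied to cell differentiation, were all lower in CHIR than in DMSO: Mxd4 was at -0.32 ± 0.05, Mxd3 at -0.28 ± 0.05 and Mxd1 at -0.28 ± 0.05 (limma adjusted p = 3.94e-04, 0.00109 and 8.34e-04). None of these 3 passed in PD03 against DMSO, where they lay between -0.03 and -0.01, and all 3 were lower in CHIR than in PD03. With PD0325901 present Mxd1 did not pass, at -0.12 ± 0.05 in 2i against PD03 (adjusted p = 0.114). In the same comparison Mxd4 was at -0.31 ± 0.05 (adjusted p = 5.34e-04) and Mxd3 at -0.17 ± 0.05 (adjusted p = 0.0302), a call lost without 2i replicate 2, without PD03 replicate 1 or 3 and in a fit of these 2 groups alone (adjusted p up to 0.161).

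Tcfl5, a helix-loop-helix factor of the germ line, and Mlxip, a glucose-responsive factor that pairs with Mlx, followed a different course. Tcfl5 averaged 7.05 in 2iLIF, 7.49 in 2i, 7.88 in CHIR, 7.77 in PD03 and 8.43 in DMSO, and it was lower than DMSO in CHIR (-0.55 ± 0.09), in PD03 (-0.66 ± 0.09) and in 2i (-0.95 ± 0.09, limma adjusted p = 1.46e-06). Mlxip was at -0.20 ± 0.05 in PD03 and -0.30 ± 0.05 in 2i against DMSO. It was also called lower in CHIR than in DMSO, with means of 9.34 and 9.48, a call that held in 5 of 12 alternatives (adjusted p up to 0.211). Both were also lower in 2iLIF than in 2i, Tcfl5 by -0.43 ± 0.09 and Mlxip by -0.32 ± 0.05 (adjusted p = 0.00579 and 1.56e-04). Mlx, the Max-like partner, had group means of 10.53 to 10.59 and did not pass in the comparisons of CHIR, PD03 or 2i with DMSO.

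**Figure D4:**
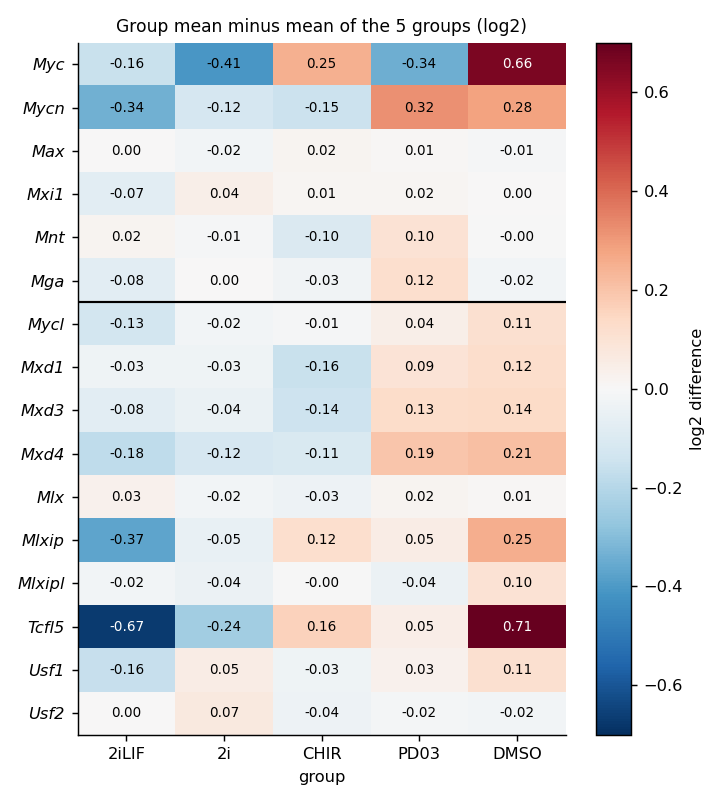
Group mean of each gene minus the mean of its 5 groups (log2), for the 6 members above the line and 10 relatives below it, with groups in columns. Myc is highest in CHIR and DMSO, Mycn and the 3 Mxd genes are highest in PD03 and DMSO, and Max and Mlx are nearly flat.

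The 43 measured Myc target genes were chosen from genes of ribosome production, nucleotide synthesis and growth that Myc is known to activate. Against DMSO, the shares called in CHIR and PD03 were near those of all genes, with calls upward in CHIR and downward in PD03. In CHIR against PD03 28 were higher and none lower, or 65.1% of the list against 25.8% of all genes (median 0.15, against -0.01 over all genes). In CHIR against DMSO 11 rose and none fell, or 25.6% against 20.8% of all genes (median 0.06, against -0.01), and in PD03 against DMSO 9 fell and none rose, or 20.9% against 16.8% (median -0.08, against 0.00). These 3 comparisons share arrays with each other. Both inhibitors together left 4 higher and 3 lower in 2i against DMSO (16.3% of the list, against 25.5% of all genes; median 0.00, against 0.02), and 14 were higher in 2i than in PD03 (32.6%, against 19.5%; median 0.07, against 0.01). The count of 11 was 5 without CHIR replicate 2, CHIR replicate 3 or DMSO replicate 2, 7 without DMSO replicate 1, and 5 in a fit of these 2 groups alone. With a mean-variance trend and robust settings the count in PD03 against DMSO was 15 and that in 2i against DMSO 12.

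Ccnd2, the gene of cyclin D2, had the widest response of the list, with means of 8.18 in 2iLIF, 9.32 in 2i, 10.67 in CHIR, 8.09 in PD03 and 8.90 in DMSO. It was 3.40-fold higher in CHIR than in DMSO (1.77 ± 0.11, limma adjusted p = 7.99e-09) and fell by 0.81 ± 0.11 in PD03 against DMSO (adjusted p = 4.07e-05). Myc and Mycn were both called lower in CHIR than in DMSO, the call of Myc being lost in 5 of 12 alternatives. Any link of either to Ccnd2 was not tested. Tfrc, the transferrin receptor gene, was at 0.47 ± 0.06 in CHIR against DMSO (adjusted p = 1.43e-05) and at -0.02 ± 0.06 in PD03 against DMSO (adjusted p = 0.889). Gnl3, the nucleolar GTPase gene nucleostemin, fell by 0.20 ± 0.03 in PD03 against DMSO (adjusted p = 4.11e-04) and was 0.31 ± 0.03 higher in CHIR than in PD03. The ribosome assembly genes Mrto4 and Wdr74 fell by 0.31 ± 0.07 and 0.25 ± 0.05 in PD03 against DMSO (adjusted p = 0.00543 and 0.00168). Odc1, the ornithine decarboxylase gene often used as a Myc read-out, was at 0.02 ± 0.06 in CHIR and -0.08 ± 0.06 in PD03 against DMSO (adjusted p = 0.879 and 0.429), and it fell by 0.27 ± 0.06 in 2iLIF against DMSO (adjusted p = 0.00111) and by 0.29 ± 0.06 in 2iLIF against CHIR (adjusted p = 0.00106).

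**Figure D5:**
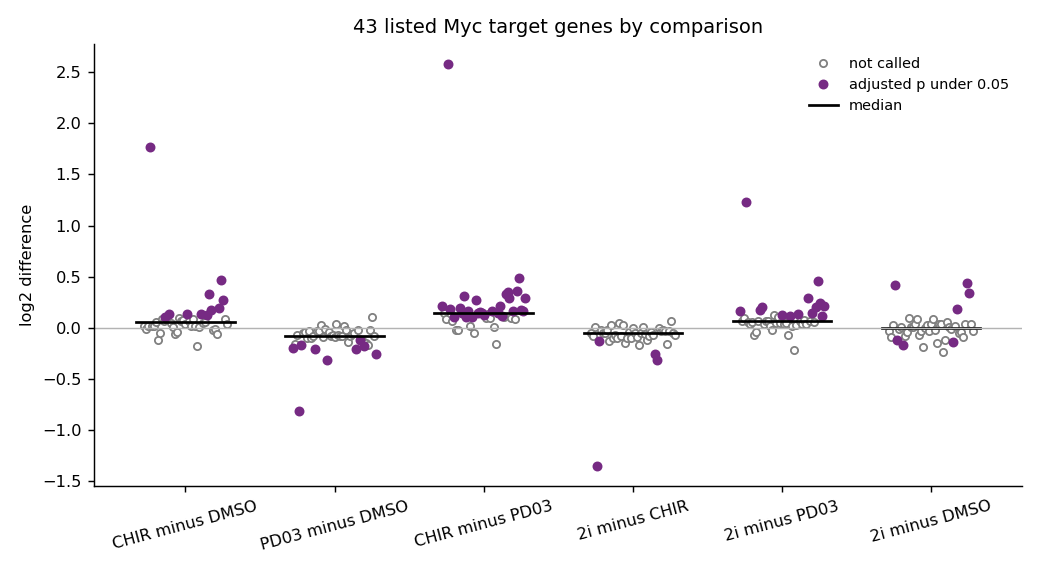
Log2 differences of 43 listed Myc target genes in 6 comparisons, with 1 point per gene and a line at the median; filled points have a limma adjusted p under 0.05. In CHIR minus PD03, 28 points are filled and all lie above 0; in PD03 minus DMSO, the 9 filled points lie below 0, with Ccnd2 lowest.

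Of 14 measured genes that Myc is known to repress, 2 rose and 5 fell in CHIR against DMSO (7 of 14 called, against 20.8% of all genes; median -0.05, against -0.01 over all genes), 2 rose and 2 fell in PD03 against DMSO (28.6%, against 16.8%; median 0.08, against 0.00), and 3 were higher and 6 lower in CHIR than in PD03 (64.3%, against 25.8%; median -0.07, against -0.01). Ndrg1, a gene of growth arrest and hypoxia, averaged 10.13 in 2iLIF, 10.23 in 2i, 9.48 in CHIR, 10.44 in PD03 and 8.75 in DMSO. It was 3.22-fold higher in PD03 than in DMSO (1.69 ± 0.06, limma adjusted p = 2.34e-11). Gadd45a, a growth arrest and stress gene of the same list, was lower, at -0.85 ± 0.06 in PD03 and -0.40 ± 0.06 in CHIR against DMSO (adjusted p = 3.33e-08 and 9.97e-05). Gadd45g fell by 0.52 ± 0.12 in CHIR against DMSO (adjusted p = 0.00609) and was at 0.20 ± 0.12 in PD03 against DMSO (adjusted p = 0.325).

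Cofactors of Myc were called in both directions. Of 16 measured, 2 were higher and 4 lower in PD03 against DMSO (37.5% called, against 16.8% of all genes; median -0.04, against 0.00 over all genes), and 4 higher and 3 lower in 2i against DMSO (43.8%, against 25.5%; median -0.03, against 0.02). Bptf, a subunit of the NURF remodeller that Myc recruits, was at -0.53 ± 0.05 in 2i against DMSO (limma adjusted p = 3e-07) and at -0.42 ± 0.05 in CHIR against DMSO. Wdr5, which contacts Myc and also belongs to PRC1.6, was at 0.20 ± 0.04 in PD03 against DMSO (adjusted p = 0.0011) and 0.19 ± 0.04 in 2i against CHIR (adjusted p = 0.00288). Of 8 corepressor genes on which Mxi1 and Mnt rely, Sin3b rose and Sin3a fell in PD03 against DMSO (25.0% called, against 16.8%; median -0.03, against 0.00), with Sin3b at 0.27 ± 0.04 (adjusted p = 3.18e-04).

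The genes whose signal was most like that of a member were ranked by Pearson correlation over the 15 arrays, which includes the differences between groups. For Myc they were Rhebl1 (r = 0.96), Dhx8 (0.95), Emp3 (0.94), Adk (0.93) and Sema6a (0.93), and for Mycn Xbp1 (0.99), H1f10 (0.98), Ajuba (0.98), Actn3 (0.98) and Camsap3 (0.98). Adk averaged 10.41 in 2iLIF, 10.45 in 2i, 10.80 in CHIR, 10.38 in PD03 and 11.22 in DMSO, and Xbp1 averaged 10.87, 11.08, 11.04, 11.40 and 11.41. Mxi1 was most like Ndfip2 (0.92) and Eml5 (0.89), Mnt most like Kmt2b (0.94) and Dock6 (0.93), and Mga most like Ctnnd1 (0.94) and Notch2 (0.94). For Max the highest values were 0.74 with Olfr1234, whose group means of 5.03 to 5.06 are near background, and 0.72 with Selenok.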

How the data were processed

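The authors deposited log2 values per probe set made with RMA (a log2 summary over the probes of a set after background correction and quantile normalization); the submitters' processing notes name RMA, and its version and the genome build are not given in the sources used here. This scaling hides a change shared by most genes. From 34760 probe sets, 21640 with exactly 1 symbol in the platform annotation were used, and the set with the highest mean stood for a gene, which left 19937 genes; 0 value columns were unused.

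With limma 3.58.1 in R 4.3.3, a model of the 5 groups was fitted over 15 arrays (lmFit, eBayes; 10 residual degrees of freedom). Calls had a Benjamini-Hochberg adjusted p under 0.05 over all genes, two-sided, with no minimum fold. The median standard error of a difference was 0.0509, and 3 arrays per group limit the precision. Separate cultures are not stated for the replicates; p-values therefore measure only how far these samples differ, possibly for technical reasons. No 2 arrays were identical, and replicates correlated at 0.996 to 0.998.

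Comparisons of 4 further pairs (2iLIF against DMSO, CHIR and PD03, and CHIR against PD03) were added after the data were seen. The members and lists were chosen with earlier results of these data known. Named genes are all members, called genes among the 4 with the largest change per list and comparison, Axin2, Dusp6 and Socs3, and the genes most correlated with a member, without predicted symbols; Gnl3, Odc1, Mlx, Gsk3a and comparisons in which a named gene was not among those 4 were chosen after their values were seen. The procedure was tested on simulated data. Alternatives were the replicate number as a block, a low-value filter, averaged probe sets, median-centred arrays, a mean-variance trend with robust settings, a fit of only the groups compared, and leaving out each array. Promoter sequences are from RefSeq (GRCm38.p6); Myc was not matched there.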

Additional observations from a re-analysis of the deposited data

Results flagged for a closer look

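No member had an interaction of the inhibitors that passed. For 8 genes on the lists used here, the effect of CHIR99021 differed between cells with and without PD0325901, by limma's test of the interaction. That test called 2.04% of all genes. The 8 were 2 of 14 Myc-repressed genes, 2 of 8 pathway read-outs, 3 of 9 pluripotency factors and Zfp42, an ES cell marker. None passed among 43 Myc target genes, 17 germ line genes, 16 Myc cofactors and 14 PRC1.6 partners. The same held for 18 genes of Myc protein stability, 10 relatives and 8 corepressors. Among genes that Myc is known to repress, Ndrg1 had an interaction of -0.93 ± 0.08 (SE, adjusted p = 1.2e-05): CHIR99021 gave -0.21 with PD0325901 and 0.72 without it. Gadd45a, at 0.34 ± 0.08 (adjusted p = 0.0423), gave -0.06 and -0.40, and this call was lost in 10 of 18 alternatives. Among pathway targets Dusp6 had 0.60 ± 0.08 (adjusted p = 5.83e-04; -0.04 with and -0.65 without PD0325901) and Lef1 -0.42 ± 0.08 (adjusted p = 0.00714; -0.92 and -0.50). Among pluripotency genes Prdm14 had -0.99 ± 0.07 (adjusted p = 1.78e-06; 0.39 and 1.38), Klf2 -0.85 ± 0.05 (adjusted p = 8.46e-07; 0.11 and 0.96), Zfp42 -0.50 ± 0.08 (adjusted p = 0.0027; 0.04 and 0.54) and Nanog -0.57 ± 0.06 (adjusted p = 1.09e-04; 0.13 and 0.70).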

How the results depend on the processing

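Of 66 results (6 members in 11 comparisons), 20 passed, and 15 of these passed in every alternative run; the exceptions are given with their genes above. Of the 46 that did not pass, 19 had the other sign in some alternative, all close to 0. With the array medians set equal, the sign turned for Mga in CHIR minus DMSO (0.019), Mxi1 in the interaction (-0.0049), Mxi1 in CHIR minus PD03 (0.026) and Max in 2iLIF minus PD03 (0.0098), and 1 member instead of 2 passed in 2i minus PD03. In fits of only the groups compared, 1 member passed in CHIR minus DMSO, and Myc passed in 2iLIF minus PD03. Leaving out 1 array at a time, the number of members called ran from 1 to 3 in CHIR minus DMSO, 1 to 2 in 2i minus PD03, 0 to 1 in 2iLIF minus 2i and 0 to 2 in 2iLIF minus CHIR. The same step took uncalled log2 differences across 0. For CHIR minus DMSO they ran from -0.023 to 0.015 for Mga, -0.015 to 0.073 for Max and -0.011 to 0.038 for Mxi1. For PD03 minus DMSO they ran from -0.048 to 0.080 for Mycn, -0.027 to 0.061 for Max and -0.0081 to 0.041 for Mxi1. For 2i they ran from -0.049 to 0.039 for Max and -0.019 to 0.0021 for Mnt against DMSO, -0.0057 to 0.059 for Mycn against CHIR and -0.18 to 0.021 for Myc against PD03. For 2iLIF, Max ran from -0.0018 to 0.037 against 2i, -0.030 to 0.058 against DMSO, -0.035 to 0.0033 against CHIR and -0.024 to 0.015 against PD03, and Mnt from -0.0033 to 0.039 against DMSO. The interaction ran from -0.049 to 0.079 for Mycn, -0.051 to 0.042 for Mnt and -0.012 to 0.040 for Mxi1, and CHIR minus PD03 from -0.014 to 0.011 for Mxi1. The cause was not tested. Groups share replicate numbers. The deviations of same-numbered arrays correlated at a median of -0.014 (30 pairs, 10 of them over 0.1), against 0.042 for other pairs. No pairing by number was detected, which does not show whether same-numbered samples shared a culture or a day. With the replicate block, 4007 genes instead of 4144 passed in CHIR minus DMSO and 3229 instead of 3354 in PD03 minus DMSO, and no call of a member changed. Signal near 6 and below limits what can be read for the germ line genes, not for the members.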

Other observations

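Genes that control the stability of Myc protein were measured at the mRNA level only. Of 18 measured, 3 rose and 2 fell in CHIR against DMSO (27.8% called, against 20.8% of all genes; median 0.00, against -0.01 over all genes), and 2 rose and 2 fell in 2i against DMSO (22.2%, against 25.5%; median -0.0050, against 0.02). Usp28, a deubiquitinase that counters Fbxw7 on Myc, averaged 10.97 in 2iLIF, 11.15 in 2i, 11.40 in CHIR, 11.46 in PD03 and 11.80 in DMSO. It fell by 0.66 ± 0.03 in 2i against DMSO (limma adjusted p = 4.74e-10), by 0.41 ± 0.03 in CHIR and by 0.34 ± 0.03 in PD03. Fbxw7 itself, the ubiquitin ligase subunit that reads the GSK3 mark on Myc, was at 0.20 ± 0.04 in CHIR against DMSO (adjusted p = 0.00143), a call that was lost with the mean of its probe sets (adjusted p = 0.0507). Gsk3b was higher in PD03 than in DMSO, with means of 10.18 and 10.03 (0.15 ± 0.04, adjusted p = 0.00873), and Gsk3a had means of 10.93 to 11.03 in the 5 groups.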
